A study of Mus musculus with 4 samples.

Results

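Calcrl, Ramp1, Ramp2, Ramp3 and Adm are 5 of the 27998 genes counted in single cells of the developing mouse heart, and together they encode a peptide receptor, the 3 accessory subunits that shape it and 1 of its ligands. They were taken by symbol, and the set was chosen by its measured levels, shares of cells and co-detection across cell types and regions in these same libraries, so those values are given here as a description with no test. The data are 4 single-cell libraries from wild-type CD1 hearts at embryonic day 16.5, 1 each from the microdissected sinoatrial node (SAN) region, the atrioventricular node (AVN)/His region, and the bundle branch/Purkinje fiber (BB/PF) regions in the left ventricle and the right ventricle. No animal was treated or carried a mutation, and the labels do not tie the libraries to separate animals. With the library as a block, p-values below thus measure only how a difference within a library varied over these 4 libraries. The 4 libraries are listed in that order throughout.

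Calcrl is a G protein-coupled receptor that works only in a pair with a receptor activity-modifying protein (Ramp), a single-pass protein that carries it to the cell surface and sets which peptide it prefers. With Ramp1 it forms the receptor for calcitonin gene-related peptide (CGRP), which is released by sensory nerves, dilates vessels and stimulates the heart; with Ramp2 or Ramp3 it forms the adrenomedullin receptors. Adrenomedullin, the product of Adm, is a vasoactive peptide that is also induced by low oxygen, and in mice the loss of Adm, Calcrl or Ramp2 causes death before birth with swelling and with defects of vessels and lymphatics, while mice without Ramp1 or Ramp3 survive.

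Of 22805 barcodes, 21035 with at least 500 genes and 1000 unique molecular identifiers (UMIs) were kept, 4356 to 5934 a library, with medians of 8479.5 to 9272 UMIs. Clusters were given the name of a cell type, as "X-like", only where they held its markers; 12273 cells were cardiomyocyte-like, 3234 fibroblast-like, 1993 endothelial-like, 1061 erythroid-like, 714 valve mesenchyme-like, 664 pericyte-like, 407 macrophage-like, 211 smooth muscle-like, 205 epicardial-like, 64 neural-like and 209 unnamed. Every marker of each of these named classes was higher inside the class than outside it in each library. For erythroid-like barcodes the margin was small in places. Their markers summed to 987, 555, 166 and 317 UMIs per 10000, against 64.1, 39.5, 67.1 and 91.4 outside them. The finer names are weaker: Gjd3 was at 0 in AVN/His-like cells and Cntn2 in left PF-like cells, and in the BB/PF libraries, where nearly all cardiomyocytes were ventricular-like, only 1 of 6 (left) and 3 of 6 (right) ventricular markers were higher in them than in the other cardiomyocyte-like cells. Levels are UMIs per 10000 UMIs of a class, with exact Poisson 95% intervals that cover counting error only, and each region is 1 library, so a difference between regions cannot be told apart from one between libraries. Mixed barcodes moved with some results: 223 to 358 kept cells a library held at least 3 of 9 endothelial markers without being endothelial-like, or over 1% hemoglobin UMIs. A total of 230 barcode sequences occurred in more than 1 library.

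In the GRCm38 annotation, Calcrl (ENSMUSG00000059588) lies on the minus strand of chromosome 2 from 84330626 to 84425411 with up to 16 exons. Ramp1 (ENSMUSG00000034353) lies on chromosome 1 from 91179822 to 91225196, Ramp3 (ENSMUSG00000041046) on chromosome 11 from 6658521 to 6677475, and Adm (ENSMUSG00000030790) on chromosome 7 from 110627661 to 110629820, all on the plus strand with up to 4 exons. Ramp2 (ENSMUSG00000001240), on chromosome 11 from 101246028 to 101259546 on the plus strand, overlaps Vps25 on the same strand, so its count may be affected by reads in the shared stretch. Adm and Ramp3 overlap Gm28863 and Gm11978 on the other strand. The libraries read 3′ ends, so isoforms were not resolved, and a level compares a gene between cells rather than genes with each other.

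Calcrl, the receptor itself, was a transcript of the endothelium. Its level in endothelial-like cells was 1.64, 1.28, 0.562 and 0.88 UMIs per 10000, a mean of 1.09 ± 0.47 (SD over 4 libraries), and 60.6%, 54.4%, 42.6% and 52.8% of these cells held a UMI. Thinned to 1500 UMIs a cell, the shares were 20.7%, 16.4%, 9.12% and 12.6%. The left BB/PF library was the lowest and the SAN library the highest by either measure, and the Poisson intervals of the 4 levels did not overlap. Endothelial-like cells gave 71.1% of all Calcrl UMIs while they gave 12.6% of all UMIs.

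Pericyte-like cells came next, with 0.495, 0.413 and 0.563 Calcrl UMIs per 10000 in the AVN/His and both BB/PF regions (0.49 ± 0.075, SD, n = 3) and a UMI in 25.5%, 27.5% and 29.3% of cells (6.96%, 6.14% and 8.21% thinned). Valve mesenchyme-like cells of the AVN/His region had 0.291 UMIs per 10000 with a UMI in 16.4% of cells, smooth muscle-like cells 0.278 and 0.144 in the SAN and AVN/His regions, and fibroblast-like cells 0.0966, 0.164, 0.136 and 0.16 (0.139 ± 0.031, SD, n = 4). In the AVN/His region the smooth muscle-like and fibroblast-like intervals overlapped and both lay below that of the valve mesenchyme-like cells, and in the SAN region smooth muscle-like cells (0.133 to 0.511) lay above fibroblast-like cells (0.0788 to 0.117), though both smooth muscle-like intervals overlapped those of the macrophage-like cells. The pericyte-like and the endothelial-like intervals were separate except in the left BB/PF library, where 0.413 (0.308 to 0.541) lay below 0.562 (0.491 to 0.641) with overlap. Macrophage-like cells, set as the background of free RNA in droplets, had 0.0846, 0.106, 0 and 0.0807 UMIs per 10000 and a UMI in 5.21%, 5.95%, 0% and 6.67% of cells, at medians of 5773, 7106.5, 6002 and 6622.5 UMIs a cell (8773, 10397.5, 11793 and 11391 in endothelial-like cells); the 0 of 22 cells in the left BB/PF library allows a share of up to 13.6%. Fibroblast-like cells held a UMI in 6.78%, 11.7%, 10.1% and 13.4% of cells. Their Calcrl level lay within the macrophage-like interval in each of the 4 libraries, so the 2 classes were not told apart by level. The macrophage-like intervals were wide, resting on 13, 8, 0 and 6 Calcrl UMIs. Macrophages are themselves known to use Calcrl with Ramp1 in other tissues, so they are no clean background for Calcrl.

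Cardiomyocyte-like cells held next to no Calcrl, at 0.0422, 0.00527, 0.0144 and 0.0507 UMIs per 10000, with a UMI in 3.26%, 0.585%, 0.735% and 2.05% of cells, all below the macrophage-like shares of the same library except in the left BB/PF region. In the ventricles this small level sat in mixed barcodes. The 42 left and 44 right cardiomyocyte-like barcodes with at least 3 endothelial markers gave 89.5% and 91.5% of the Calcrl UMIs of their class, while they held 5.04% and 7.18% of its UMIs. With all mixed barcodes left out, the levels were 0.0312, 0.00437, 0.00163 and 0.00437, so that the SAN region, below the right BB/PF region with mixed barcodes in, was then the highest.

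Ramp2, the subunit of the main adrenomedullin receptor, was the most widespread of the 3 Ramps in endothelial-like, fibroblast-like, valve mesenchyme-like and pericyte-like cells. It was found in 97.9%, 97.9%, 98.2% and 98.8% of endothelial-like cells (69.2%, 69.1%, 58% and 63.8% thinned), at 9.07, 8.71, 6.09 and 7.24 UMIs per 10000 (7.77 ± 1.4, SD, n = 4). Valve mesenchyme-like cells of the AVN/His region, which form the heart valve cushions, had 9.65 UMIs per 10000 (9.38 to 9.92) and a UMI in 91.9% of cells, above the 8.71 (8.48 to 8.94) of the endothelial-like cells beside them. Fibroblast-like cells had 2.84, 5.57, 3.98 and 4.21 UMIs per 10000 (4.15 ± 1.1, SD, n = 4) with a UMI in 74.2%, 87.7%, 88.6% and 91.1% of cells, lowest in the SAN region and highest in the AVN/His region. Ramp2 thus reached cell classes in which Calcrl was scarce: 49.8% of its UMIs were in endothelial-like, 28.1% in fibroblast-like and 11.7% in valve mesenchyme-like cells.

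Pericyte-like cells, second for Calcrl, had only 1.25, 0.849 and 0.927 Ramp2 UMIs per 10000, with a UMI in 38.7%, 38.3% and 37.6% of cells. Macrophage-like cells had 0.944, 0.411 and 0.215 in the same libraries, and the intervals of the 2 classes were apart only in the right BB/PF region. Over the 4 libraries macrophage-like cells held a Ramp2 UMI in 10.9%, 16.7%, 4.55% and 5.56% of cells. Cardiomyocyte-like cells had 0.12, 0.142, 0.242 and 0.394 UMIs per 10000, and here too the mixed barcodes carried the ventricular values, since 91.9% of the left and 93.7% of the right Ramp2 UMIs of this class were in the 42 and 44 barcodes with endothelial markers. Without mixed barcodes the levels were 0.0792, 0.121, 0.0209 and 0.0275, which puts both BB/PF libraries below the other 2.

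Ramp3, the third subunit, which also pairs with Calcrl to bind adrenomedullin, was rare and found mainly in endothelial-like cells. These had 0.19, 0.322, 0.117 and 0.172 UMIs per 10000 (0.2 ± 0.087, SD, n = 4), with a UMI in 12%, 19.2%, 11.2% and 16.4% of cells (2.25%, 3.91%, 1.78% and 2.32% thinned), and gave 79.8% of all Ramp3 UMIs. The AVN/His library was the highest and its interval (0.28 to 0.37) was apart from the others. Fibroblast-like cells had 0.00386 to 0.00679 UMIs per 10000 and pericyte-like cells 0.0135 in the AVN/His region and no UMI in 149 left and 311 right cells, which allows a share of up to 2.01% and 0.965%. The SAN region held a few Ramp3 UMIs elsewhere, with 11 in macrophage-like, 6 in neural-like and 5 in smooth muscle-like cells, at levels (0.0716, 0.125 and 0.139) whose intervals overlapped each other and, for the last 2 classes, that of the endothelial-like cells.

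**Figure D1:**
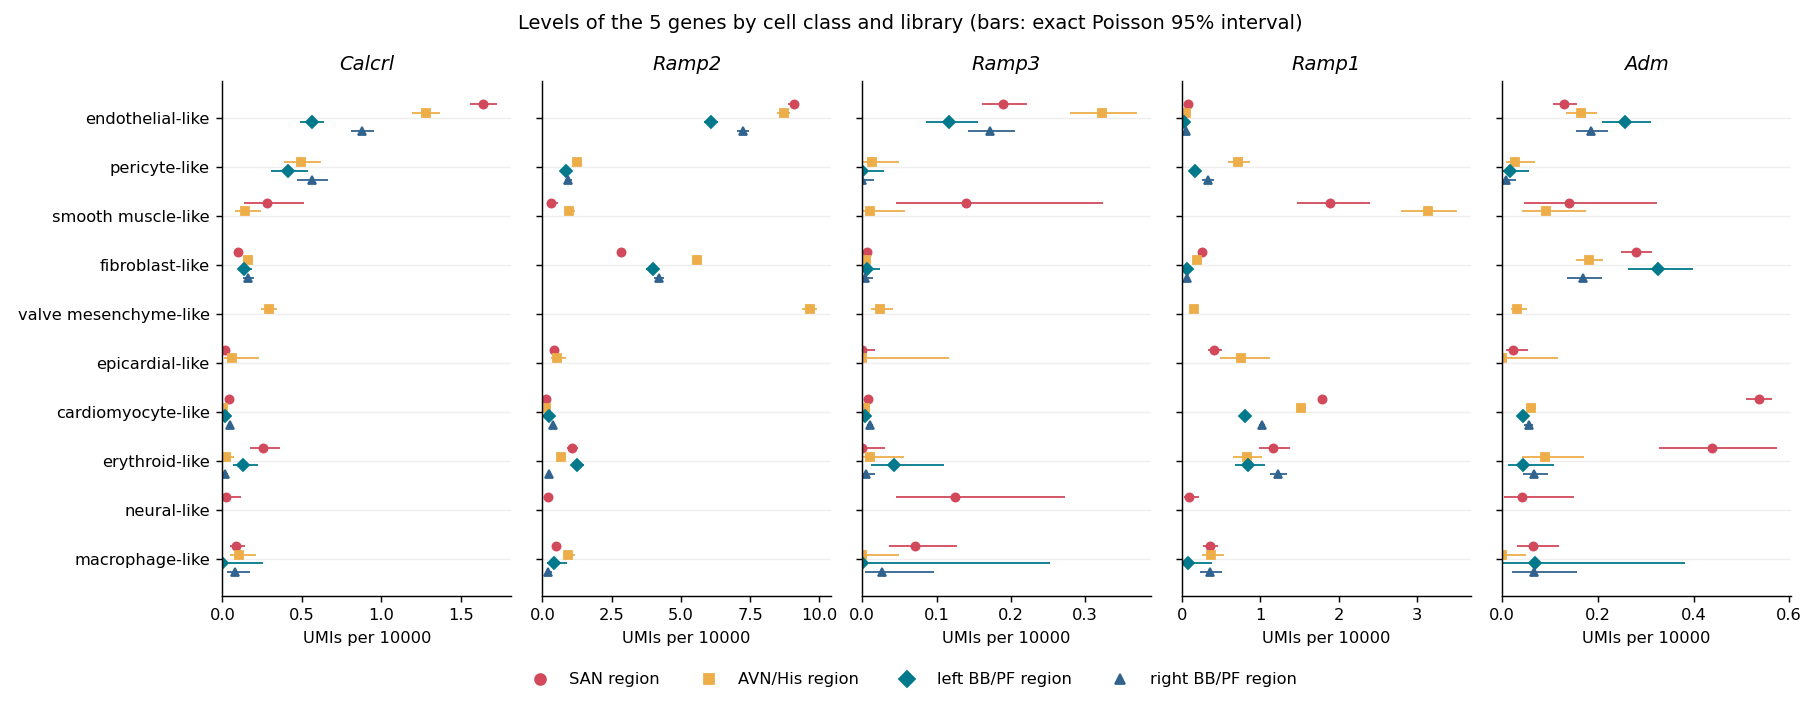
Levels of the 5 genes in UMIs per 10000 (horizontal axes, 1 panel a gene, scales differ) by cell class, with 1 point for each library that holds the class and bars for the exact Poisson 95% interval. Calcrl, Ramp2 and Ramp3 are highest on the endothelial-like row apart from Ramp2 in valve mesenchyme-like cells (9.65). Ramp1 is highest in smooth muscle-like and cardiomyocyte-like cells in the SAN and AVN/His regions. In both BB/PF regions its erythroid-like point lies above the cardiomyocyte-like one, with overlapping intervals in the left. The SAN region stands alone for Adm in cardiomyocyte-like cells (0.536).

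Set against all other cells of its library, the endothelium exceeded 2-fold for each receptor gene but Ramp1. Calcrl was 26, 15.1, 15.7 and 9.22 times as high in endothelial-like cells as in the rest, Ramp2 10.8, 3.89, 11.6 and 7.8 times, and Ramp3 17.2, 49.8, 26.2 and 21 times, while 12.5%, 16.5%, 21.2% and 18.7% of all genes with a level that could be ranked were at least 2-fold higher in endothelial-like cells. Ramp1 ran the other way, with 0.0757, 0.0474, 0.0174 and 0.0534 UMIs per 10000 in endothelial-like cells against 1.24, 1.09, 0.732 and 0.856 in the rest. Adm was 0.312 times as high in endothelial-like cells as in the rest in the SAN region and 2.05, 4.19 and 2.68 times in the other 3.

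Within the endothelium, Calcrl and Ramp2 were higher in the endocardium, the inner lining of the heart chambers, than in coronary capillaries. Endocardial-like cells (219, 79, 31 and 80) had 2.15, 2.93, 2.03 and 2.7 Calcrl UMIs per 10000, and coronary capillary-like cells (60, 222, 130 and 224) had 0.772, 0.678, 0.47 and 0.516. The ratios were 2.79 (2.12 to 3.72), 4.31 (3.56 to 5.23), 4.32 (3.05 to 6.07) and 5.23 (4.26 to 6.43), so the 2 groups did not overlap in any library. For Ramp2, endocardial-like cells had 11.2, 11.5, 13.9 and 12.7 UMIs per 10000 and coronary capillary-like cells 5.09, 7.51, 5.51 and 6.41, ratios of 2.19, 1.53, 2.53 and 1.98. Of all genes ranked, 19.3%, 18.4%, 17.0% and 19.9% were at least 2-fold higher in endocardial-like than in coronary capillary-like cells of the same library, so ratios of this size were common between these clusters. The share of endocardial-like cells among the endothelial-like was largest in the SAN region, at 219 of 747 cells.

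Adm was lower in endocardial-like than in coronary capillary-like cells beyond counting error in 3 of 4 libraries, the reverse of Calcrl and Ramp2. Endocardial-like cells had 0.041, 0.0498, 0.0363 and 0.013 Adm UMIs per 10000 (11, 4, 1 and 1 UMIs) and coronary capillary-like cells had 0.0932, 0.244, 0.272 and 0.204, with a UMI in 8.33%, 15.8%, 20.8% and 19.2% of cells. The ratio was 0.204 (0.0541 to 0.545) in the AVN/His, 0.133 (0.00331 to 0.774) in the left and 0.0636 (0.00159 to 0.366) in the right BB/PF library; in the SAN region it was 0.44 (0.156 to 1.34), and its interval held 1. Ramp3 did not separate the 2 groups, with 0.119, 0.174, 0.0363 and 0.22 UMIs per 10000 in endocardial-like and 0.173, 0.224, 0.0842 and 0.149 in coronary capillary-like cells and ratio intervals that held 1 in each library. Its highest level, 0.607 (0.502 to 0.728), was in the 135 endothelial-like cells of the AVN/His region that took no finer name. Venous-like cells of the SAN region (106, in a cluster also led by the lymphatic genes Ccl21a and Lyve1) had 2.29 Calcrl UMIs per 10000 (2.03 to 2.56), not different beyond counting error from the 2.15 (1.98 to 2.33) of the endocardial-like cells there, with 6.9 for Ramp2 against 11.2. Arterial-like cells (24 and 35 in the AVN/His and right BB/PF regions) had 0.518 and 0.862 Calcrl UMIs per 10000.

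**Figure D2:**
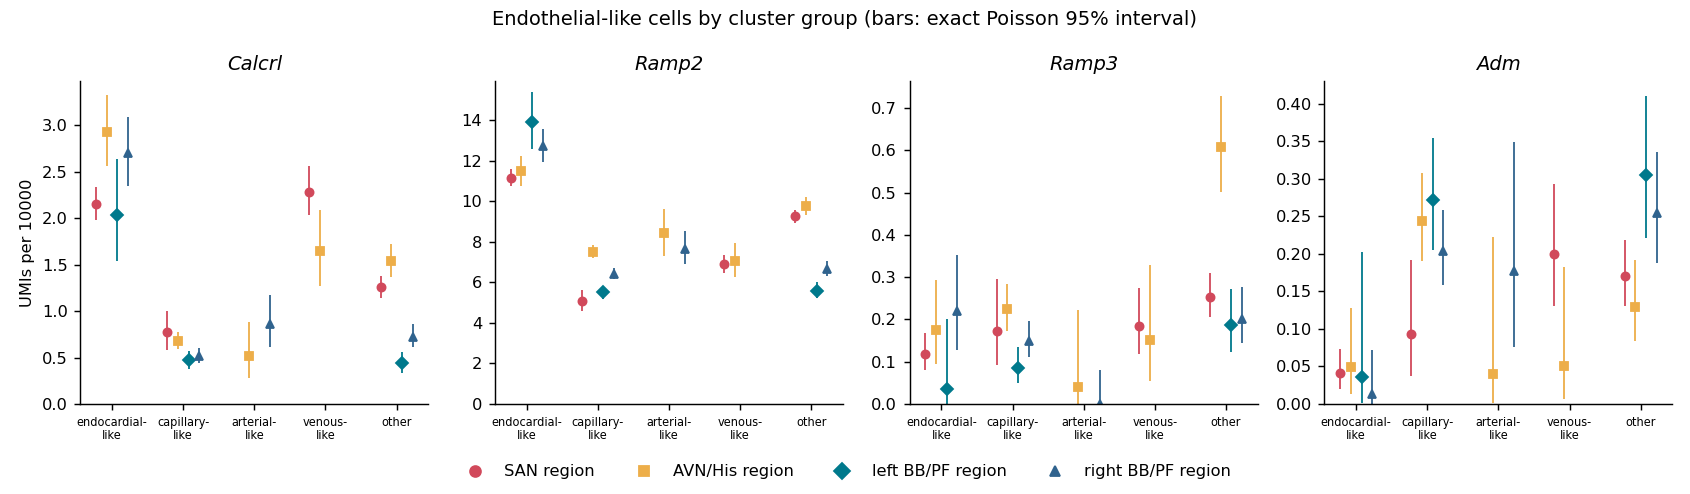
UMIs per 10000 (vertical axes) of Calcrl, Ramp2, Ramp3 and Adm in endothelial-like cells by cluster group, 1 point for each library with at least 20 cells of the group and bars for the exact Poisson 95% interval; "other" are endothelial-like cells with no finer name. Calcrl and Ramp2 are higher in endocardial-like than in coronary capillary-like cells in all 4 libraries, and Adm is lower there in 3 of 4 by its interval.

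Ramp1, which turns Calcrl into the CGRP receptor, was the Ramp of muscle. Cardiomyocyte-like cells had 1.78, 1.52, 0.801 and 1.02 UMIs per 10000 (1.28 ± 0.45, SD, n = 4), with a UMI in 66.1%, 61.8%, 44% and 55% of cells (22.1%, 18.3%, 11.3% and 14.4% thinned), and gave 86.9% of all Ramp1 UMIs. Smooth muscle-like cells, found in 2 libraries, were higher still in the AVN/His region, where 3.14 UMIs per 10000 (2.79 to 3.51) stood above 1.52 (1.48 to 1.56), whereas in the SAN region 1.89 (1.47 to 2.4) did not differ from 1.78 (1.73 to 1.83) beyond counting error. Pericyte-like cells had 0.711, 0.159 and 0.327 in the AVN/His and both BB/PF regions, epicardial-like cells 0.411 and 0.756 in the SAN and AVN/His regions, and fibroblast-like cells 0.258, 0.184, 0.0577 and 0.0579. Endothelial-like cells held a Ramp1 UMI in 1.81% to 4.55% of cells, fewer than the 4.55% to 21.1% of macrophage-like cells, which are themselves known to use this receptor in other tissues and are no clean background for it. Erythroid-like barcodes had 1.16, 0.824, 0.845 and 1.23 UMIs per 10000. This was below the cardiomyocyte-like level in the SAN and AVN/His regions and above it in the right BB/PF region (514 UMIs). In the left BB/PF region (79 UMIs) it did not differ from the cardiomyocyte-like level beyond counting error. The part of free or mixed cardiomyocyte RNA in the erythroid-like values was not tested.

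The conduction cells, those of clusters named for a component of the conduction system (component-like), had more Ramp1 than other cardiomyocytes. SAN-like cells (111) had 4.57 UMIs per 10000 against 1.67 in the other 2867 cardiomyocyte-like cells of their region, a ratio of 2.73 (2.48 to 3.0). AVN/His-like cells (149) had 5.08 against 1.21 in 2481 others, left after 1 unnamed cluster described next was set aside, a ratio of 4.21 (3.91 to 4.54). PF-like cells had 6.87 in the left (40 cells) and 5.91 in the right BB/PF region (21 cells) against 0.745 and 0.986 in 4177 and 2320 others, ratios of 9.21 (8.05 to 10.5) and 6.0 (4.91 to 7.27). Between 89.2% and 97.5% of the component-like cells held a UMI, against 43.5% to 65.2% of the others (46% to 59.2% against 10.8% to 21.2% thinned). Of all genes ranked, 7.86%, 10.8%, 21.6% and 20.3% were at least 2-fold higher in the component-like cells of the 4 libraries, and Ramp1 held places 299 of 7737, 264 of 8114, 204 of 7804 and 244 of 7502 by ratio. The study had itself picked Ramp1 on these libraries as a conduction gene, so the direction is no independent evidence.

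These ratios depend on the clusters. In the AVN/His region a second cluster of 107 cells with AVN/His markers took no name; it had 3.34 Ramp1 UMIs per 10000, a ratio of 2.77 (2.50 to 3.06) over the same 2481 cells. The markers of atrial myocytes summed to 556 UMIs per 10000 in AVN/His-like cells, 64.9 in the unnamed cluster and 30.7 in the other cardiomyocyte-like cells, so in AVN/His-like cells nodal and atrial cells cannot be told apart. Of the AVN/His-like cells, 47 held a UMI of Tbx3, the transcription factor of the node, and had 6.55 Ramp1 UMIs per 10000 against 4.30 in the 102 without, whereas the same split of SAN-like cells ran the other way, with 4.24 in 75 cells with and 5.49 in 36 cells without a UMI of Tbx3 and intervals that overlapped. With 20 principal components the PF-like ratios fell to 2.38 and 1.96, and with at least 1000 genes and 2000 UMIs a cell to 3.46 and 2.44.

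**Figure D3:**
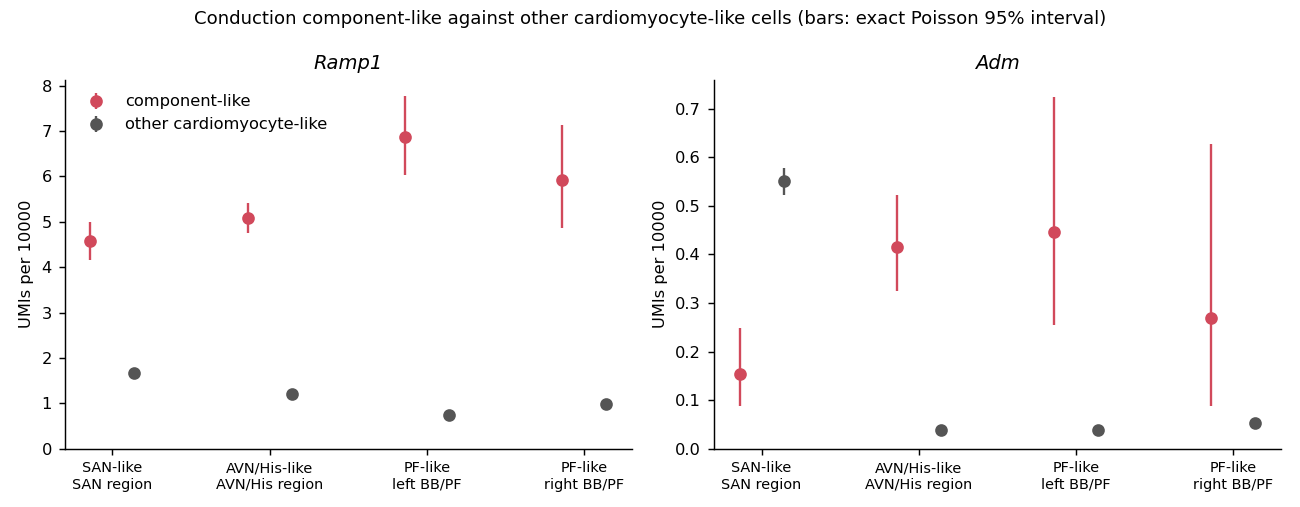
UMIs per 10000 (vertical axes) of Ramp1 and Adm in component-like cells (left point of each pair) and in the remaining cardiomyocyte-like cells of that library (right point), with exact Poisson 95% intervals. Ramp1 is higher in the component-like cells in all 4 libraries, while Adm is lower in SAN-like cells as clustered here (0.153 against 0.55; ratios of 1.36 and 1.37 under 2 other clustering settings) and higher in AVN/His-like and PF-like cells.

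Adm, the ligand gene, was most abundant in the working myocytes of the SAN region. Cardiomyocyte-like cells there had 0.536 UMIs per 10000 with a UMI in 32% of cells (7.53% thinned), against 0.061, 0.0432 and 0.0555 with a UMI in 5.19%, 3.49% and 5.43% (0.857%, 0.572% and 0.822% thinned) in the other 3 libraries. Macrophage-like cells held a UMI in 3.32%, 0%, 4.55% (1 of 22 cells) and 5.56%, and the 0 of 84 cells in the AVN/His region allows up to 3.57%. Both BB/PF shares were at or below this background and the AVN/His share was above it. Macrophage-like medians were 5773, 7106.5, 6002 and 6622.5 UMIs, against 9518.5, 10749, 8684 and 10156 in cardiomyocyte-like cells. AVN/His-like cells held 72 of the 185 cardiomyocyte-like Adm UMIs of their region, and 3.91% of the 2481 ventricular-like cells there held one. In the left and right BB/PF regions 35% and 23.8% of PF-like cells held one. The atrial-like cells of the SAN region had 0.55 UMIs per 10000 and the ventricular-like cells of the AVN/His, left and right BB/PF regions 0.0396, 0.0406 and 0.054. These are ratios of 13.9 (11.4 to 17.1), 13.6 (11.4 to 16.2) and 10.2 (8.53 to 12.3), where 6.17%, 7.77% and 6.76% of all genes were at least 2-fold higher in the atrial-like cells; the chamber and the library cannot be told apart. Ramp1 was 1.39, 2.35 and 1.72 times as high in the same comparisons, with Calcrl too low to rank.

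Outside muscle, Adm was found in fibroblast-like cells at 0.28, 0.181, 0.326 and 0.17 UMIs per 10000 (0.239 ± 0.076, SD, n = 4) and in endothelial-like cells at 0.129, 0.164, 0.256 and 0.186 (0.184 ± 0.054, SD, n = 4), with a UMI in 7.81% to 19.5% and 9.77% to 18.4% of cells. The left BB/PF library was the highest for both. Erythroid-like barcodes had 0.0428 to 0.438 Adm UMIs per 10000. Their highest level, with a UMI in 16.1% of barcodes (52 UMIs), was in the SAN region, above the fibroblast-like and endothelial-like levels there. The part of free or mixed cardiomyocyte RNA in this was not tested. Pericyte-like cells had 0.0271, 0.0159 and 0.00828, and valve mesenchyme-like cells 0.0316, against 0, 0.0685 and 0.0672 in macrophage-like cells of the AVN/His, left and right BB/PF regions. In all, cardiomyocyte-like cells gave 61.7%, fibroblast-like cells 19.7% and endothelial-like cells 13.4% of the Adm UMIs.

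Among conduction cells Adm followed no single direction. SAN-like cells had 0.153 UMIs per 10000 (16 UMIs) against 0.55 in the other cardiomyocyte-like cells, a ratio of 0.278 (0.158 to 0.453), but the ratio was 1.36 at 0.5 times the clustering resolution and 1.37 with 20 principal components. AVN/His-like cells had 0.415 against 0.0396, a ratio of 10.5 (7.67 to 14.3), and PF-like cells 0.447 and 0.269 in the left and right BB/PF regions against 0.0396 and 0.0539, ratios of 11.3 (6.29 to 18.9) and 4.99 (1.59 to 11.9), with only 5 UMIs in the right PF-like cells. In the unnamed cluster with AVN/His markers, the atrial myocyte markers summed to 64.9 UMIs per 10000, against 30.7 in the other cardiomyocyte-like cells. Its Adm level was 0.0384, a ratio of 0.97 (0.309 to 2.34). Within AVN/His-like cells the level was 0.553 with and 0.343 without a UMI of Tbx3, and within SAN-like cells 0.143 and 0.181, with intervals that overlapped in both. The markers of atrial myocytes summed to 446 UMIs per 10000 in SAN-like cells against 740 in the others, and to 556 against 30.7 in AVN/His-like cells. In PF-like cells they summed to 121 against 23.5 (left) and 42.4 against 30.7 (right). Their part in the Adm ratios was not tested.

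Co-detection followed the abundance of each Ramp. Of the Calcrl-holding endothelial-like cells (453, 261, 118 and 258), 98.2%, 98.5%, 99.2% and 98.8% also held Ramp2, against 97.3%, 97.3%, 97.5% and 98.7% of those without Calcrl. Ramp3 was held by 13%, 24.9%, 10.2% and 19% of the Calcrl-holding cells, against 10.5%, 12.3%, 11.9% and 13.4% of the rest, and Ramp1 by 4.64%, 4.98%, 2.54% and 3.88%, against 4.42%, 3.65%, 1.26% and 4.33%. Only 7, 4, 1 and 3 Calcrl-holding endothelial-like cells had no UMI of any Ramp. The Calcrl-holding cells were deeper, with medians of 10524 to 14840.5 UMIs against 6775 to 10223. At 1500 UMIs a cell, the share holding Calcrl and Ramp2 together was 1.06 to 1.17 times the product of the 2 single shares, that of Calcrl and Ramp3 1.02 to 1.61 times, and that of Calcrl and Ramp1 0.525 to 1.49 times. Within coronary capillary-like cells alone the Ramp2 ratio was 0.975 to 1.17, and within endocardial-like cells 0.96 to 1.0.

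In the mural cells of small vessels, the pericyte-like cells, the pattern was another one. Calcrl-holding cells (52, 41 and 91) held Ramp1 in 32.7%, 12.2% and 18.7%, against 19.7%, 8.33% and 10.5% of cells without Calcrl. Ramp2 was held by 28.8%, 24.4% and 39.6% of Calcrl-holding cells, against 42.1%, 43.5% and 36.8%, lower in the AVN/His and left BB/PF regions only. Thinned, the joint share of Calcrl and Ramp1 was 1.84, 1.69 and 1.87 times the product, and that of Calcrl and Ramp2 0.675, 0.589 and 0.775 times. The exact binomial intervals of these shares were wide, at 20.3% to 47.1% for Ramp1 and 17.1% to 43.1% for Ramp2 in the AVN/His region. Smooth muscle-like cells were few: 9 of 11 Calcrl-holding cells of the AVN/His region and 7 of 8 of the SAN region held Ramp1. Of the AVN/His smooth muscle-like cells without Calcrl, 67.5% held Ramp1. Over all smooth muscle-like cells the shares with Ramp1 were 68.7% in the AVN/His and 57.1% in the SAN region.

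Fibroblast-like Calcrl-holding cells (87, 130, 31 and 71) held Ramp2 in 81.6%, 96.2%, 100% and 97.2%, against 73.7%, 86.6%, 87.4% and 90.2% of those without, and the thinned joint share was 1.07 to 1.18 times the product. In valve mesenchyme-like cells 93.2% of 117 Calcrl-holding cells held Ramp2, against 91.6%. Cardiomyocyte-like cells with Calcrl showed the mixed barcodes again: in the left and right BB/PF regions 80.6% of 31 and 79.2% of 48 held Ramp2, against 2.10% and 2.57% of the rest, and their medians were 40629 and 41793.5 UMIs, against 8668.5 and 10117. In the AVN/His region 8 of 16 held Ramp2, 50% (24.7% to 75.3%), against 8.45% of the rest. In the SAN region, where 97 cardiomyocyte-like cells held Calcrl, 61.9% held Ramp1, against 66.3% of the rest, and 15.5% held Ramp2, against 6.87%.

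**Figure D4:**
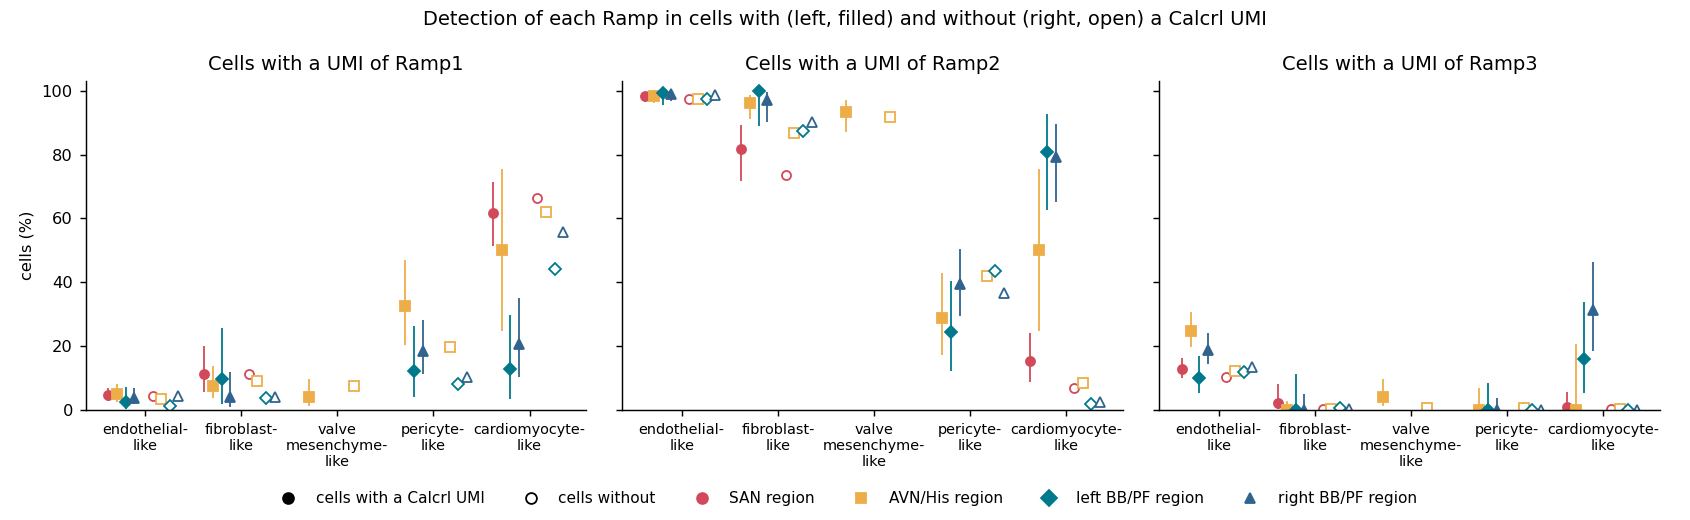
Share of cells (vertical axes, percent) with a UMI of Ramp1, Ramp2 and Ramp3 among cells with a Calcrl UMI (left, filled, exact binomial 95% interval) and without one (right, open), by cell class and library. Ramp2 is near its ceiling in endothelial-like cells with and without Calcrl, pericyte-like cells with Calcrl hold Ramp1 in 12.2% to 32.7%, and cardiomyocyte-like cells with Calcrl hold Ramp2 in 80.6% and 79.2% in the left and right BB/PF, 50% in the AVN/His and 15.5% in the SAN library.

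Across the 49 sums per cluster group and library with at least 20 cells, among 3866 genes, each member but Adm had near neighbors of its own. The measure was Pearson's r of log2(UMIs per 10000 + 0.1), over sums that share libraries and depth. Calcrl was most like Dock6 (0.94), Emcn (0.92), an endothelial surface sialomucin, and Myo6 (0.91). Ramp2 was most like Eng (0.96), an endothelial co-receptor of the TGF-beta family, Emp1 (0.95) and Slc43a3 (0.91). Ramp3 was most like Pde2a (0.80), a phosphodiesterase that breaks down cyclic nucleotides, Palm (0.78) and Gimap5 (0.77). Ramp1 was most like the muscle genes Hspb2 (0.93), Synpo2 (0.92) and Tpm1 (0.91). Adm had no close neighbor, with Tmem163 (0.61), Sbk2 (0.56) and Kcnj3 (0.56), a subunit of an atrial potassium channel, as the nearest. Between members, r was 0.86 for Calcrl with Ramp2, 0.71 with Ramp3 and -0.69 with Ramp1, and -0.84 for Ramp1 with Ramp2.

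Of the 45 other genes of the pathway that were listed, 33 reached a UMI in at least 10% of the cells of 1 group in 1 library, as did 45.2% of all 27998 genes; the list was made of known genes, so nothing is read from its higher share. Among 4 other ligands this was only Calca, which encodes CGRP; it was highest in epicardial-like cells, with 0.169 UMIs per 10000 in the SAN and 0.283 (9 UMIs in 26 cells) in the AVN/His region. In cardiomyocyte-like cells Calca had 270 UMIs in the SAN region, 0.0927 per 10000, and 13, 1 and 1 UMIs in the other libraries. Of 4 other receptors 3 passed, and of these the adrenomedullin-scavenging Ackr3 and its relative Gpr182 were endothelial: Ackr3 had 0.574, 0.318, 0.234 and 0.296 UMIs per 10000 in endothelial-like cells, and Gpr182 1.58, 1.61, 2.03 and 2.33 in endocardial-like against 0.652, 0.485, 0.5 and 0.437 in coronary capillary-like cells. Of 12 other receptors known to bind a Ramp, 5 passed: Gcgr, the glucagon receptor, with 0.363 in SAN-like against 0.0057 in atrial-like cells of the SAN region, Crhr2 with 0.201 against 0.0723 in the same cells, Pth1r with 0.614 and 0.753 in the left and right PF-like cells, Adcyap1r1 in epicardial-like and Gper1 in arterial-like cells.

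All 7 genes of peptide processing and breakdown passed 10%. Pam, which amidates adrenomedullin and CGRP, had 29.1 UMIs per 10000 in the cardiomyocyte-like cells of the SAN region, against 5.71, 3.87 and 5.39 in the other libraries, so it was high in the same library as Adm. Its highest level was in erythroid-like barcodes of the SAN region, at 35.2 UMIs per 10000 with a UMI in 91.4% of them. The part of free or mixed cardiomyocyte RNA in that level was not tested. Cpe and Ece1, peptidases, were endocardial, with 7.4, 5.9, 7.65 and 8.62 UMIs per 10000 for Cpe in endocardial-like against 0.466, 0.397, 0.0842 and 0.184 in coronary capillary-like cells. Mme, neprilysin, was highest in the fibroblast-like cells of the SAN region (0.217), and Furin in SAN-like cells (3.13, against 0.436 in atrial-like cells). Of 18 genes of signal relay, 17 passed. Gnas, the stimulatory G protein subunit to which Calcrl couples, had 28.4, 43.5, 44.8 and 44.1 UMIs per 10000 in endothelial-like against 12.7, 10.3, 11.1 and 10.8 in cardiomyocyte-like cells, and Adcy5, the main cardiac adenylyl cyclase, 1.2 in SAN-like against 0.574 in atrial-like cells.

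The cell cycle had no part in the choice of the 5 genes and allowed a test. Cells with a UMI of at least 3 of 10 cycle genes (cycle-marked) were set against cells with none (unmarked), as sums of counts per library, with edgeR's quasi-likelihood test and the library as a block. In endothelial-like cells Calcrl and Ramp2 were lower in cycle-marked cells in 4 of 4 libraries. Calcrl had 1.15, 0.962, 0.499 and 0.71 UMIs per 10000 in cycle-marked against 2.05, 1.93, 0.769 and 1.02 in unmarked cells, with a log2 difference of -0.77 (SE 0.09, edgeR adjusted p = 6.55e-05). Ramp2 had 7.43, 7.27, 5.64 and 6.09 in cycle-marked against 10.6, 10.4, 7.31 and 8.77 in unmarked cells, a log2 difference of -0.48 (SE 0.05, edgeR adjusted p = 1.94e-05). Adm (0.06, adjusted p = 0.866), Ramp3 (-0.21, 0.477) and Ramp1 (-0.89, 0.0698) did not pass. Of 10091 genes tested, 13.2% were higher and 11.1% lower in cycle-marked cells, so 2 of 5 members lower stands against a large background.

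Of 22 pathway genes tested there, 2 were higher and 8 lower in cycle-marked endothelial-like cells. The receptors Ackr3 (-1.40, adjusted p = 2.02e-05) and Gpr182 and the peptidase Cpe (-1.57, 8.82e-05) were among the lower, and Gnas (0.48, 2.5e-05) and Prkar2a (0.60, 0.00288), a regulatory subunit of protein kinase A, were the higher ones, though Gnas turned to -0.049 within coronary capillary-like cells alone. Cycle-marked cells were deeper, with medians of 15341 to 19098 UMIs against 6614 to 7927, and the mix of vessels differed, as 35.5%, 9.09%, 5.71% and 7.51% of the cycle-marked and 24.8%, 21.9%, 22.2% and 23.9% of the unmarked cells were endocardial-like. Coronary capillary-like cells, which are low in both genes, made up 20.7%, 61.4%, 74.3% and 65.3% of the cycle-marked and 1.25%, 38.8%, 13.9% and 32% of the unmarked cells. Several settings were added after the data were seen. Within coronary capillary-like cells alone, few of them unmarked in the SAN and left BB/PF regions, Calcrl was -0.18 (SE 0.22, adjusted p = 0.707) and no longer called, and Ramp2 was -0.35 (0.0227). With coronary capillary-like cells left out Calcrl was -0.67 (adjusted p = 0.00155) and Ramp2 -0.47 (0.00209), with endocardial-like cells left out -0.53 (0.02) and -0.47 (0.000795), and among cells of 5000 to 15000 UMIs -0.61 (0.0028) and -0.50 (0.000132). Without the library as a block Calcrl was -0.80 (adjusted p = 0.141) and Ramp2 remained past the threshold (adjusted p = 0.0324). Pathway genes called were 1 higher and 2 lower without the block. Within coronary capillary-like cells alone, 1 of 13 pathway genes was higher and 0 lower, beside 8.10% and 3.99% of all 5941 genes tested. With coronary capillary-like cells left out, 2 of 20 were higher and 5 lower, beside 7.52% and 5.60% of all 8685 genes. With endocardial-like cells left out, 2 of 22 were higher and 5 lower.

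In cardiomyocyte-like cells Ramp1 and Adm were lower in cycle-marked cells. Ramp1 had 1.41, 1.03, 0.505 and 0.655 UMIs per 10000 in cycle-marked against 1.98, 1.85, 1.10 and 1.35 in unmarked cells, a log2 difference of -1.04 (SE 0.11, edgeR adjusted p = 0.00017). Adm had 0.393, 0.043, 0.0418 and 0.0548 in cycle-marked against 0.625, 0.0707, 0.0436 and 0.0582 in unmarked cells, a log2 difference of -0.61 (SE 0.12, adjusted p = 0.00505) that was clear in the SAN and AVN/His regions and small in both BB/PF regions; without the SAN region it was -0.43 (adjusted p = 0.0914). Ramp2 (2.61, SE 0.54, adjusted p = 0.00541) and Calcrl (1.95, SE 0.55, adjusted p = 0.0214) were higher in cycle-marked cells, and so were the endothelial markers, which summed to 0.94, 0.345, 3.24 and 5.70 UMIs per 10000 in cycle-marked against 0.438, 0.257, 0.152 and 0.192 in unmarked cells, none of the 9 at 0. With mixed barcodes left out, Ramp2 was 0.21 (adjusted p = 0.318), Calcrl fell under the count filter, Ramp1 stayed lower (-0.87, 1.44e-10) and so did Adm (-0.77, 3.12e-06). Without the block Adm was -0.75 (0.663). Calcrl was also not called without the left (1.64, 0.0722) or the right BB/PF library (1.29, 0.0838).

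Of 11711 genes tested in cardiomyocyte-like cells, 21.2% were higher and 23.6% lower in cycle-marked cells, and 5 and 8 of 26 pathway genes, so the members moved in a comparison where much of the transcriptome did. Adcy5 (-0.57, adjusted p = 0.000277) was lower, and Prkar2b (0.48, 0.0144) and, with endothelial markers, Gpr182 (2.88, 0.0191) were higher. Of 25 genes of the low-oxygen response, 1 was higher (Nos3, the endothelial nitric oxide synthase, 2.23, 0.00565) and 11 lower, among them Vegfa (-0.67, 6.37e-05) and Egln3 (-0.55, 0.000445), with a median of -0.19 against -0.03 over all genes. In endothelial-like cells 3 of 23 were higher and 2 lower, with a median of -0.07 against -0.03.

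**Figure D5:**
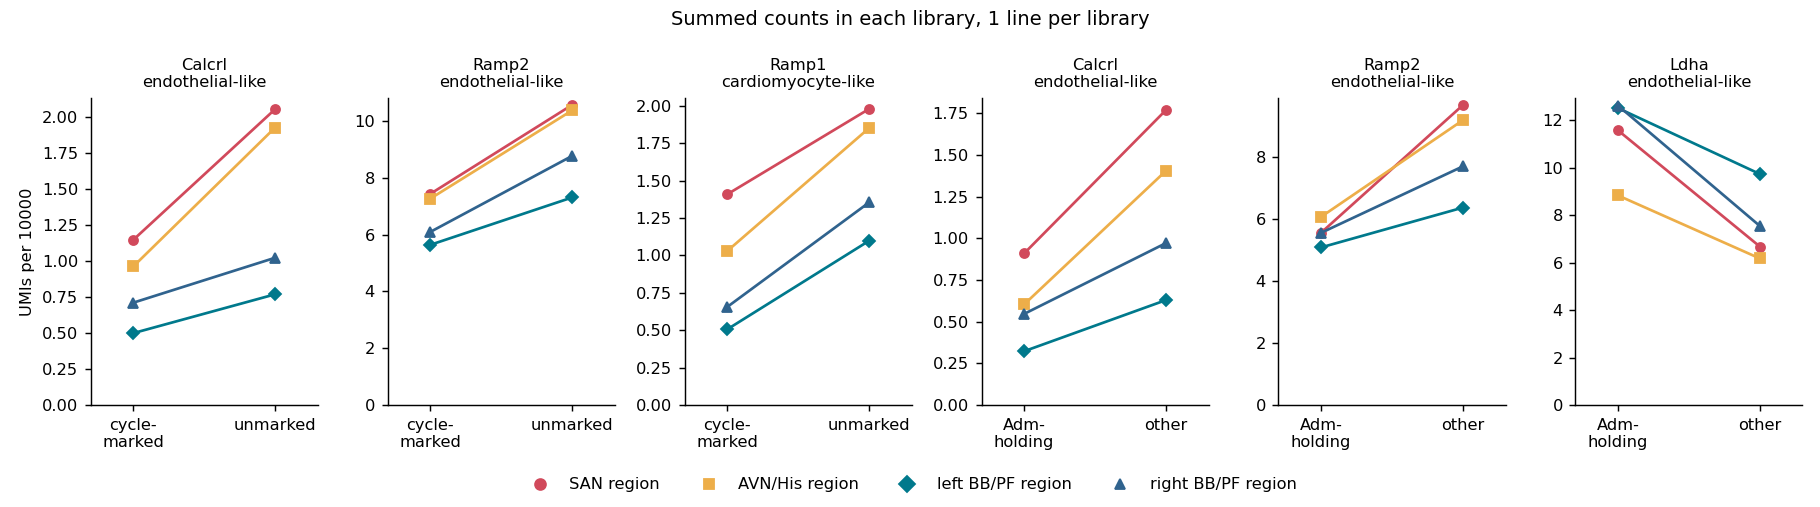
UMIs per 10000 (vertical axes) in the 2 sums of each library, joined by a line: cycle-marked (left) against unmarked cells for Calcrl and Ramp2 in endothelial-like and Ramp1 in cardiomyocyte-like cells, and Adm-holding (left) against other endothelial-like cells for Calcrl, Ramp2 and Ldha. Calcrl, Ramp2 and Ramp1 are lower on the left in all 4 libraries, and Ldha is higher.

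Adm is known as a target of the factors that sense low oxygen, whose binding element is ACGTG or GCGTG. Both strands of the RefSeq promoters (GRCm38.p6, 250 bases before to 50 after a gene start, found for Adm, Calcrl, Ramp1 and Ramp3) were searched for these letters. Adm had 2 matches, 90 and 54 bases before its start, Ramp3 2, 219 and 65 bases before, Calcrl 1, 22 bases after, and Ramp1 none; of 32851 promoters, 19.6% held ACGTG, 32.4% GCGTG, 43.8% either and 20.6% at least 2 matches. The promoters of the ligand and of the receptor are printed because these 2 genes are set against each other in the next comparison, from 5′ to 3′ on the strand of the gene, at chr7:110627407-110627706 on the plus strand for Adm and chr2:84425217-84425516 on the minus strand for Calcrl, with matches in capitals (CACGC is GCGTG on the other strand).
Adm: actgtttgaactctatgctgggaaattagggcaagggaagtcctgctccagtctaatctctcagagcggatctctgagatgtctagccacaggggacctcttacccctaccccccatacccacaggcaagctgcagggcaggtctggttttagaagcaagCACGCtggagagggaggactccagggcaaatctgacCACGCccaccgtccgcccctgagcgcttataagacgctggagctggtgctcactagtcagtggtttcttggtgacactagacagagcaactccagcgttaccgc
Calcrl: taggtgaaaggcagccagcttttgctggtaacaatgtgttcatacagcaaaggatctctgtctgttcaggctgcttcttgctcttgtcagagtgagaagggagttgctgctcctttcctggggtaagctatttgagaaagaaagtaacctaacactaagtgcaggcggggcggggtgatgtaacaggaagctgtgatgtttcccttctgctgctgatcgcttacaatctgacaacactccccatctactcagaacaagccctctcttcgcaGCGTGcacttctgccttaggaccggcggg

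Endothelial-like cells with a UMI of Adm (Adm-holding) were set against the rest, summed per library in the same way. Since the levels of the 5 genes across cell types had a part in their choice, their own values in this split are a description with no test. Adm-holding endothelial-like cells (73, 53, 51 and 79) had 0.909, 0.603, 0.322 and 0.546 Calcrl UMIs per 10000, against 1.77, 1.40, 0.629 and 0.971 in the other endothelial-like cells, lower in 4 of 4 libraries with a log2 difference of -0.98 (SE 0.10). Ramp2 had 5.55, 6.07, 5.08 and 5.55 in Adm-holding against 9.68, 9.19, 6.37 and 7.70 in the other cells, a log2 difference of -0.54 (SE 0.08). The log2 differences of Ramp3 and Ramp1 were 0.05 and -0.18. Of 9790 genes tested with edgeR, 2.85% were higher and 3.12% lower in Adm-holding cells. The makeup moved with it, since 13.7%, 5.66%, 1.96% and 1.27% of Adm-holding and 31%, 17.8%, 13.3% and 19.3% of the other cells were endocardial-like, and 6.85%, 66.0%, 52.9% and 54.4% against 8.16%, 43.8%, 45.6% and 44.1% coronary capillary-like; with endocardial-like cells left out, a setting added on seeing the data, Calcrl was -0.87 and Ramp2 -0.46. Adm-holding cells were deeper, with medians of 14634 to 17478 against 8416 to 10795 UMIs, and among cells of 5000 to 15000 UMIs the differences were -1.26 and -0.78. Leaving out the AVN/His library left 59 genes higher and 105 lower in place of 279 and 305, and leaving out the right BB/PF library 97 and 155.

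Of 23 genes of the low-oxygen response tested, 3 were higher and none lower in Adm-holding endothelial-like cells: Ldha, lactate dehydrogenase (0.62, SE 0.07, edgeR adjusted p = 0.00124), with 11.6, 8.84, 12.5 and 12.6 UMIs per 10000 in Adm-holding against 6.68, 6.18, 9.74 and 7.55 in the other cells; Ankrd37 (0.66, adjusted p = 0.0147); and Egln3. The median over the list was 0.25, with 17 of 23 above 0, beside -0.003 and 49.7% over all genes. The count of 3 was 1 without the AVN/His library, without the right BB/PF library or without endocardial-like cells, and 0 without the library as a block. Of 21 pathway genes, 1 was higher, Gnas (0.40, adjusted p = 0.00607), and 5 lower, among them Cpe (-1.70, 0.00121), Ece1 (-0.93, 0.00262) and Gpr182 (-0.65, 0.00509), which were also higher in endocardial-like than in coronary capillary-like cells; with endocardial-like cells left out 0 were higher and 2 lower, and without the block 0 and 0.

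Adm-holding fibroblast-like cells (177, 87, 60 and 64) gave few calls, with 0.0515% of 9708 genes higher and 0.0721% lower, 5 and 7 genes. None of 22 low-oxygen or of 22 pathway genes was among them. DESeq2 called 10 and 10, and edgeR 50 and 79 without the SAN library and 0 and 0 without any 1 of the others. Calcrl had 0.0796, 0.0671, 0.0451 and 0.1 UMIs per 10000 in Adm-holding against 0.0999, 0.174, 0.162 and 0.17 in the other cells (log2 fold change -0.90, SE 0.28), lower in 4 of 4 libraries. Ramp2 was -0.47, lower in 4 of 4, and Ramp1 0.89. Mme was 1.01 (edgeR adjusted p = 0.0782) and Ldha 0.28 (0.246), each higher in 4 of 4 libraries.

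Among cardiomyocyte-like cells, 953, 142, 147 and 127 held Adm. No gene passed edgeR at an adjusted p of 0.05, 0% of 12164 higher and 0% lower, while 610 were higher and 381 lower at an unadjusted p under 0.05, and DESeq2 called 15 and 7. Ramp1 was -0.10 (SE 0.17), with 1.69, 2.16, 0.586 and 0.888 UMIs per 10000 in Adm-holding and 1.82, 1.48, 0.814 and 1.03 in the other cells, higher in the AVN/His region only. Calcrl was 1.33 and Ramp2 1.2, and the endothelial markers summed to 0.585, 0.404, 12.7 and 8.95 UMIs per 10000 in Adm-holding against 0.642, 0.301, 0.845 and 2.20 in the other cells. With mixed barcodes left out Calcrl was 0.21, Ramp2 -0.48 and Ramp1 0.15, and 12 genes were higher and 47 lower. The 25 low-oxygen genes had a median of 0.08 with 15 above 0, beside -0.002 and 49.5% over all genes, and with mixed barcodes left out 0.19 with 24 above 0, beside -0.0001 and 49.95%.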

How the data were processed

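The authors aligned the reads of each 10x 3′ library to mouse genome mm10 with Cell Ranger at default parameters and deposited UMI counts per gene and barcode; the version is not given in the sources used here. The deposited counts cover 27998 genes. Barcodes with 500 to 60000 genes and at least 1000 UMIs were kept; library totals were 49328589 to 58029660 UMIs. The 5 genes and all gene lists were chosen with earlier results of these data known.

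Cells were clustered with scanpy 1.11.5 and leidenalg 0.10.2 (2000 variable genes without 76 listed genes, 10 principal components, 30 neighbors, resolution 0.8). A cluster was named where at least 50% of the markers of a type, and at least 3, passed an average log fold change of 0.25 and a share of 10%; for conduction cells 60% was required, a share set after the clusters were seen. Scrublet scores over 0.2 marked 80 to 187 cells a library, and its automatic threshold marked 3 and 0 cells in the BB/PF libraries and did not work there, so no doublets were removed and mixed barcodes were left out as an alternative. Shares were also given as the hypergeometric expectation after thinning each cell to 1500 UMIs; no kept cell was below that. Intervals are exact Poisson, conditional binomial for ratios and Clopper-Pearson for shares, at 95%; where no UMI was seen, 3 counts set the limit. Ratios were ranked among genes with enough counts, and 2-fold marked the background.

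For tests, counts were summed per library and group of cells, and edgeR 4.0.16 (quasi-likelihood, TMM, filterByExpr, library as a block, Benjamini-Hochberg at 0.05) was run over all genes in R 4.3.3; DESeq2 1.42.0 was an alternative. For Adm-holding cells the p-values of the 5 genes are not reported. The edgeR steps were tested on simulated data. Alternatives covered normalization, count filter, block, each library left out, clustering settings and cell filters; those on mixed barcodes, depth and endothelial makeup in the cycle fits and on endothelial makeup in the Adm fits were added after the data were seen. The 5 genes are always named; of the pathway and low-oxygen lists, those with a UMI in 10% of cells of a class, or the 3 with the smallest p in each direction of a fit, may be named, and for each of the 5 the 3 genes most like it. Promoters are from RefSeq (GRCm38.p6); Ramp2 is named only.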

Additional observations from a re-analysis of the deposited data

Results flagged for a closer look

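The direction of Adm in conduction cells, as clustered here, differed between regions. The ratio of Adm in component-like over other cardiomyocyte-like cells was 0.278 in the SAN region, 10.5 in the AVN/His region, 11.3 in the left and 4.99 in the right BB/PF region. The SAN-like ratio was above 1 under other clustering settings, at 1.36 with 0.5 times the resolution and 1.37 with 20 principal components, so the difference in direction rests on the clusters used here. The difference between the regions was not tested, each being 1 library. In component-like cells the markers of atrial myocytes differed in the same direction as Adm in each library. They summed to 446 UMIs per 10000 in SAN-like cells against 740 in the cells beside them, and to 556 against 30.7 in AVN/His-like cells. In PF-like cells they summed to 121 against 23.5 in the left and 42.4 against 30.7 in the right BB/PF region. In the unnamed cluster with AVN/His markers they summed to 64.9 against 30.7, while its Adm ratio was 0.97 (0.309 to 2.34). The part of these markers in the ratios was not tested.

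The receptor genes moved in opposite directions in cycle-marked cells of 2 classes. Ramp2 was -0.48 in endothelial-like and 2.61 in cardiomyocyte-like cells on the log2 scale, and Calcrl -0.77 and 1.95. The difference between the classes was not tested. In cardiomyocyte-like cells without mixed barcodes Ramp2 was 0.21 (edgeR adjusted p = 0.318) and Calcrl fell under the count filter; the call of Calcrl was also lost without the left (1.64, adjusted p = 0.0722) or the right BB/PF library (1.29, 0.0838). The endothelial markers summed to 0.94, 0.345, 3.24 and 5.70 UMIs per 10000 in cycle-marked against 0.438, 0.257, 0.152 and 0.192 in unmarked cardiomyocyte-like cells. In endothelial-like cells the call of Calcrl was lost within coronary capillary-like cells alone (-0.18, adjusted p = 0.707).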

How the results depend on the processing

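Thinned to 1500 UMIs, the mean share of Calcrl-holding endothelial-like cells with Ramp1, Ramp2 and Ramp3 was 0.504%, 71.5% and 3.57%, that of fibroblast-like cells with Ramp2 48.7%, and those of pericyte-like cells with Ramp1 and Ramp2 9.46% and 8.80%. Ramp2 in cardiomyocyte-like cells averaged 0.0621 UMIs per 10000 without mixed barcodes, against 0.225 with them. The Ramp1 ratio of SAN-like cells was 2.31 with 20 principal components. That of AVN/His-like cells was 3.23 at 0.5 and 3.56 at 1.5 times the resolution, 3.88 with listed genes among the variable ones and 4.60 from the cells' own levels. That of PF-like cells was 2.38 (left) and 1.96 (right) with 20 components and 3.46 and 2.44 with at least 1000 genes and 2000 UMIs a cell; at 0.5 and 1.5 times the resolution and with listed genes no cluster took the PF name, so no value could be given. Adm in SAN-like cells turned to 1.36 at 0.5 times the resolution and 1.37 with 20 components. The causes were not tested.

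For cycle-marked endothelial-like cells, genes higher numbered 810 with DESeq2, 632 without the library block, 830 at 5000 to 15000 UMIs, 653 without and 481 within coronary capillary-like cells, and genes lower 533, 209, 658, 486 and 237; leaving out a library gave 620 to 947 lower. For cardiomyocyte-like cells no block gave 1477 higher and 924 lower. For Adm-holding cardiomyocyte-like cells, higher and lower were 15 and 7 with DESeq2, 8 and 44 at 5000 to 15000 UMIs, 12 and 47 without mixed barcodes, and up to 2 higher without a library (0 to 2). For Adm-holding endothelial-like cells, 0 were higher and 2 lower without the block, 100 and 112 without endocardial-like cells and 137 and 172 at 5000 to 15000 UMIs; 174 were lower with DESeq2 and 606 without the filter, and leaving out a library gave 59 to 198 higher and 105 to 241 lower. For Adm-holding fibroblast-like cells, 10 were higher with DESeq2, 71 and 123 were higher and lower without the filter, 0 and 0 without the block, 16 and 16 at 5000 to 15000 UMIs, 8 and 11 without mixed barcodes, and 0 to 50 and 0 to 79 with a library left out.

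Calls of members were lost without the block for Calcrl in cycle-marked endothelial-like (-0.80) and cardiomyocyte-like cells (1.96) and Adm in cycle-marked cardiomyocyte-like cells (-0.75); within coronary capillary-like cells for Calcrl in the cycle-marked (-0.18), where Gnas turned to -0.049; without mixed barcodes for Ramp2 in cycle-marked cardiomyocyte-like cells (0.21); and with a library left out for Calcrl (1.29 to 2.09, lost without the left or the right BB/PF library) and Adm there (-0.70 to -0.43, lost without the SAN library). In Adm-holding endothelial-like cells, described with no test, Calcrl was -0.98 and Ramp2 -0.55 without the block.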
